A study of Mus musculus with 4 samples.

Results

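Blood vascular endothelial nuclei were taken from single-nucleus RNA sequencing of the inguinal fat depot of mice, which lies under the skin of the groin. A nucleus was placed in this class when it held at least 300 genes and at most 10% mitochondrial UMIs (unique molecular identifiers, each counting 1 captured RNA molecule), and carried a UMI for at least 3 of the 8 genes Cyyr1, Adgrl4, Adgrf5, Btnl9, Emcn, Ptprb, Shank3 and Pecam1. It also had to carry fewer than 2 of the 5 lymphatic endothelial markers Mmrn1, Prox1, Flt4, Reln and Ccl21a, and fewer than 4 of the 9 adipocyte markers Adipoq, Plin1, Cidec, Acsl1, Ghr, Pde3b, Fam13a, Acaca and Gpam. In all, 518 of 50067 nuclei met the rule. The members were thus selected on the UMI counts of these 22 marker genes and on their mitochondrial share. Values of the 22 genes and of mitochondrially encoded genes are given only as a description.

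All mice were C57BL/6N, aged 6 months, and untreated as far as the labels say. There were 2 libraries of genotype WT and 2 of genotype PTRF knockout, each named for a separate mouse. PTRF is cavin-1, which coats caveolae and is encoded by Cavin1. The series title names a distal enhancer of Ptrf, and the labels do not say how the allele was made or in which cells it acts.

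Endothelial cells line every blood vessel, and in fat they hand fatty acids and hormones from the blood to adipocytes. Their capillary, arterial and venous forms differ in which genes they use. Caveolae are dense in endothelial membranes, where cavin-1 and caveolin-1 build the coat together.

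Cavin1 was read first, as the check of the labels. Cavin1 UMIs numbered 1 and 0 in endothelial nuclei of the 2 WT libraries, and 58 and 57 in those of the 2 PTRF knockout libraries. These totals correspond to 7.28 and 0 CPM, which are counts scaled to a common library total, against 698 and 209 CPM. The gene named in the knockout label was thus nearly undetected under the WT label and present under the knockout label, against the labels. The names of the deposited files also carry the other genotype from the labels. The labels were kept, the libraries are called WT-labelled 1 and 2 and KO-labelled 1 and 2 throughout, and every difference below is KO-labelled minus WT-labelled, so its direction rests on labels that Cavin1 goes against.

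Endothelial nuclei numbered 155 and 67 in WT-labelled 1 and 2, and 116 and 180 in KO-labelled 1 and 2. They contributed 180655, 94709, 122473 and 341372 UMIs in the same order. Their median UMIs were 995, 1170, 942 and 1576, and their median mitochondrial share was 3.16%, 3.14%, 4.42% and 1.60%. Library KO-labelled 2 was thus the deepest and had the lowest mitochondrial share. Between 47 and 143 barcodes were shared by any 2 libraries, and 0 of them belonged to endothelial nuclei of both. Before the lymphatic and adipocyte limits, 216, 82, 129 and 259 nuclei carried 3 of the 8 markers, of which 61, 15, 13 and 79 were removed. The lymphatic limit took 47 and 11 nuclei from the WT-labelled libraries, against 2 and 20 from the KO-labelled ones.

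The promoters of the endothelial genes give the sequence context of this class. Among the 25 leading genes described below, 14 were found in the RefSeq promoter table of GRCm38.p6, and the 250 bases before each annotated start were searched on both strands for GGAAG, the core that ETS family factors bind. The core was present before at least 1 start of 13 of these 14 genes (92.9%), and of 66.9% of all 27025 genes in the table. Per promoter the shares were 18 of 23 (78.3%) and 64.1%. Of the 14 genes, 4 are in the rule (Cyyr1, Adgrl4, Adgrf5 and Shank3), and without them the core was present for 9 of 10 genes (90%) and before 13 of 18 starts (72.2%). The longer forms CCGGAAG and CAGGAAG, which contain the core, were found before 0 and 2 of the 14 genes, against 7.83% and 12.1% of all genes, and both of the latter 2 are in the rule. The promoters of 3 genes are shown, 5′ to 3′ with GGAAG or its reverse complement in capitals. Flt1 and Ccdc85a, leading genes outside the rule, carry 3 and 2 matches, and Cavin1, the gene named in the label, has none in this window.
Flt1, chr5:147726012-147726261, minus strand: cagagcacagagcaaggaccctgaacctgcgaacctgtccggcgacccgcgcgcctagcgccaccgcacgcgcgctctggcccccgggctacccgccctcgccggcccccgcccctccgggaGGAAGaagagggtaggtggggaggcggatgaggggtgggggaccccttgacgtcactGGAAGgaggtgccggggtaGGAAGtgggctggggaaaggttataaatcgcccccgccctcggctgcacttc
Ccdc85a, chr11:28584325-28584574, minus strand: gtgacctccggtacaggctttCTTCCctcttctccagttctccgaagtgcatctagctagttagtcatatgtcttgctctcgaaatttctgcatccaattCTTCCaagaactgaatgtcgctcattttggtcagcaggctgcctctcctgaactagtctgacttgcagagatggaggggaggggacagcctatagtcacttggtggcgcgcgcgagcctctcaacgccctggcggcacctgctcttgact
Cavin1, chr11:100970618-100970867, minus strand: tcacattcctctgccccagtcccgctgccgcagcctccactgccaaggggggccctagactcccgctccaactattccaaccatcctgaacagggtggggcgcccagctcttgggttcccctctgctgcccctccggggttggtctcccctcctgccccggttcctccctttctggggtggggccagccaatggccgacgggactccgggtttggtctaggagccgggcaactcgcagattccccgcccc

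The leading genes of the class are given as a description, since the rule itself set the inside of the gate against the outside. The 25 genes with the largest ratio of level inside to outside the gate, among 113 genes with at least 50 UMIs in each library, included 6 of the genes in the rule. The others were led by Ablim3, with a median log2 ratio of 4.76 over the 4 libraries, then Ccdc85a (4.12), Flt1 (4.10), Cdh13 (3.94), Mecom (3.90) and Ldb2 (3.42). Flt1 encodes a VEGF receptor, Cdh13 is the adiponectin-binding T-cadherin, and Mecom is a transcription factor of arterial endothelium. Flt1 stood at 797, 560, 833 and 1520 CPM inside the gate in libraries WT-labelled 1 and 2 and KO-labelled 1 and 2, and at 30.0, 65.0, 71.9 and 43.6 CPM outside it. Inside exceeded outside in each of the 4 libraries, but the genes were ranked by this ratio, so this is no test of the class.

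**Figure D1:**
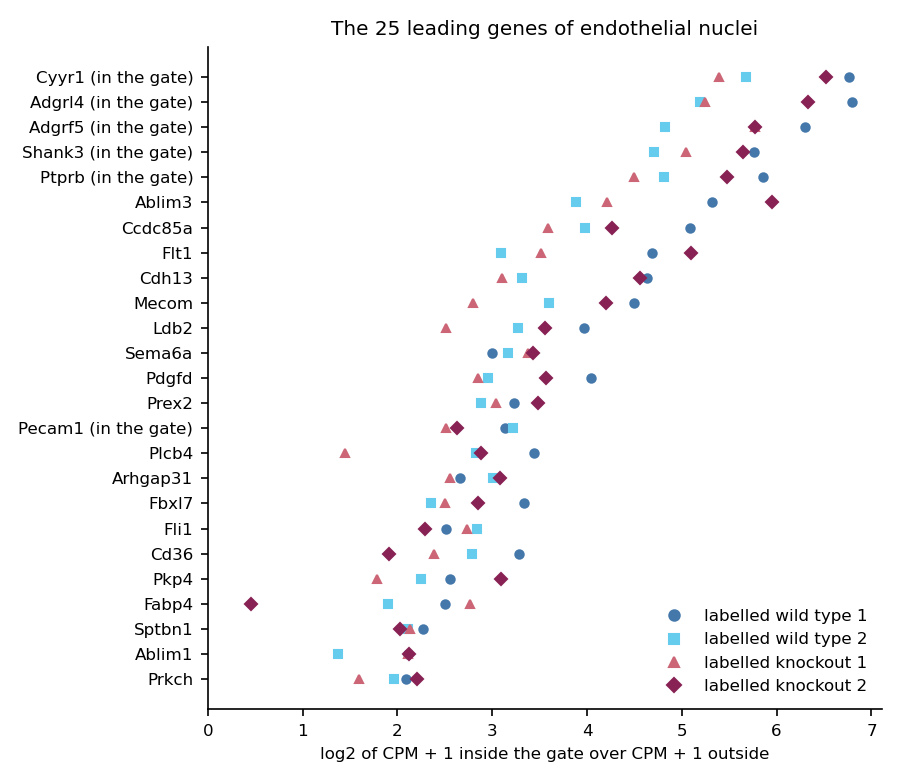
Each row is 1 of the 25 leading genes, the x axis is the log2 ratio of CPM + 1 inside the endothelial gate to that outside, and each symbol is 1 library. Genes marked as in the gate chose the members, and Fabp4 shows the widest spread, from 0.45 to 2.76.

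Fatty acid genes were among the leading genes too. Cd36, a fatty acid translocase, stood at 3548, 1922, 2180 and 2877 CPM inside the gate and at 363, 278, 415 and 765 CPM outside it, in the same order of libraries. With each nucleus thinned to 500 UMIs, 52.1% of endothelial nuclei carried Cd36, against 31.7% of adipocyte nuclei, which use the gene themselves, and 4.11% of progenitor nuclei. Flt1 was carried by 34.2% of endothelial, 1.70% of adipocyte and 1.40% of progenitor nuclei after the same thinning. The shares in classes that should lack Flt1 thus lay far under that of endothelial nuclei.

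The share of nuclei without other endothelial markers fell at each step from 2 to 5 of the 8 markers, not only at the limit of 3. Of 191 nuclei with exactly 3 of the 8 markers, just inside the rule, 27.2% carried none of 20 other endothelial markers such as Cdh5, Kdr and Tek. Of 1041 nuclei with 2 markers, just outside it, 63.9% carried none. With 4 markers the share was 7.76% of 116 nuclei, and with 5 it was 1.04% of 96. Nuclei with exactly 3 markers were 51 of 155 and 19 of 67 in WT-labelled 1 and 2. They were 65 of 116 and 56 of 180 in KO-labelled 1 and 2, so the libraries differed in this. The median UMIs of nuclei with 2, 3 and 4 markers were 954, 941 and 1025.

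Markers of other classes were present within the gate. The 10 lymphatic markers summed to 631 and 1056 CPM in WT-labelled 1 and 2, and to 139 and 226 CPM in KO-labelled 1 and 2. Within these sums Pkhd1l1 held 210, 264, 8.17 and 23.4 CPM, and Sema3d 210, 348, 32.7 and 41.0 CPM. Both are among the genes called by label below. Of these 10, Ccl21a was at 0 in every library, and 1, 1, 3 and 2 of the 10 were at 0. Prox1, the defining factor of lymphatic identity, had 2, 4, 3 and 4 UMIs. The 12 mural markers, of pericytes and smooth muscle, summed to 581, 739, 1176 and 308 CPM, with 4, 3, 3 and 1 of them at 0. The 9 B cell markers, Bank1 among them, summed to 1943, 2133, 2360 and 3670 CPM, much of it Ebf1, which other cells of fat use as well, with Cd79a at 1, 0, 0 and 1 UMIs. The 15 adipocyte markers summed to 3388, 2133, 2645 and 4084 CPM, against 6657 to 17782 CPM outside the gate. At least 2 of these 15 were seen in 58.7%, 40.3%, 48.3% and 93.3% of endothelial nuclei, so most often in KO-labelled 2. Of 155, 67, 116 and 180 endothelial nuclei, 104, 55, 97 and 57 carried fewer than 2 of the rule's 9 adipocyte markers. No doublet caller was run, so nuclei captured in pairs may remain.

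The share of endothelial nuclei among all nuclei was 0.998% in WT-labelled 1 (exact 95% interval 0.848 to 1.17) and 1.01% in WT-labelled 2 (0.780 to 1.28). It was 0.968% in KO-labelled 1 (0.800 to 1.16) and 1.13% in KO-labelled 2 (0.974 to 1.31). Groups overlapped, at 1.002% ± 0.0051 and 1.05% ± 0.117 (SD, n = 2 each, two-sided exact permutation p = 1). With 2 libraries against 2 the smallest p this test can give is 0.333, and the intervals cover counting error only.

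Vessel types were read as nuclei with at least 2 markers of a list after thinning to 500 UMIs. Venous marks, from a list with Vwf, Selp, Nr2f2 and Tll1, were seen on 26.5% (19.7 to 34.1) and 34.3% (23.2 to 46.9) of endothelial nuclei in WT-labelled 1 and 2. In KO-labelled 1 and 2 they were seen on 12.9% (7.42 to 20.4) and 21.1% (15.4 to 27.8). The groups did not overlap, at 30.4% ± 5.57 and 17.0% ± 5.78 (SD, n = 2 each, two-sided exact permutation p = 0.333, the smallest possible). Unthinned, the shares were 41.3%, 61.2%, 29.3% and 47.8% and the groups overlapped. The same mark was seen on 7.51% to 15.8% of thinned progenitor nuclei, 1.66% to 4.58% of adipocyte nuclei and 16.7% to 37.2% of lymphatic nuclei, whose median UMIs ran from 1260 to 2444.5, 1376 to 2536.5 and 741.5 to 1971.

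Capillary marks, from a list with Cd36, Fabp4 and Gpihbp1, were the most common, at 61.9%, 43.3%, 57.8% and 54.4% of endothelial nuclei in libraries WT-labelled 1 and 2 and KO-labelled 1 and 2. Adipocyte nuclei carried the same mark at 29.4% to 35.7%, and progenitor nuclei at 1.04% to 5.64%. Cd36 and Fabp4 are also known as adipocyte genes. Arterial marks were seen on 19.4%, 10.4%, 14.7% and 25% of endothelial nuclei and on 0.114% to 1.76% of adipocyte and progenitor nuclei. Neither differed between the groups beyond the spread of libraries (two-sided exact permutation p = 1 and 0.667). Angiogenic marks, at 4.48% to 7.22%, lay under the 7.99% to 18.6% of adipocyte and progenitor nuclei and above the 0% to 4.44% of lymphatic nuclei. The mark was thus not particular to endothelial nuclei, and no vessel type is read from it.

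**Figure D2:**
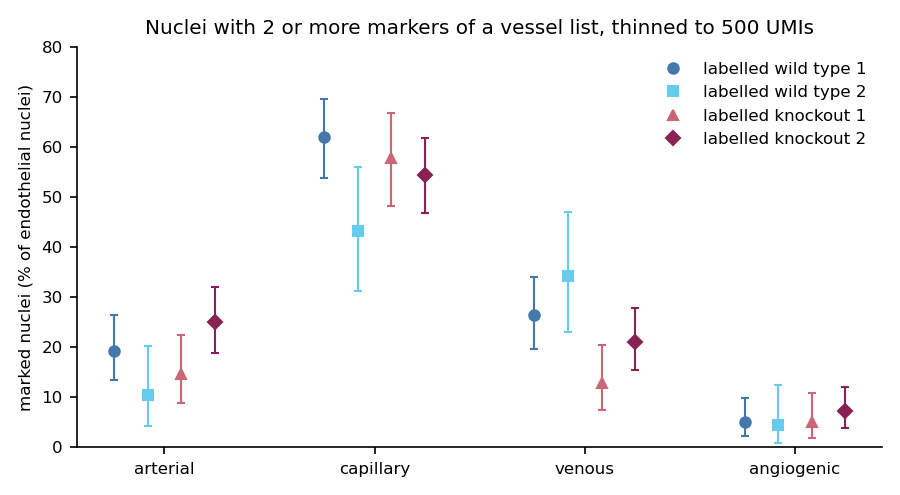
The x axis lists 4 vessel marks and the y axis gives the percentage of endothelial nuclei, thinned to 500 UMIs, with at least 2 markers of the list. Points are libraries and bars are exact 95% binomial intervals, and the venous mark is at 26.5% and 34.3% in the WT-labelled libraries against 12.9% and 21.1% in the KO-labelled ones.

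Across genes, UMIs were summed per library over the endothelial nuclei and compared with edgeR's quasi-likelihood test, with p-values adjusted by Benjamini-Hochberg over all 3560 genes tested. This gave 10 genes at an adjusted p under 0.05, which is 0.281% of those tested, with 3 higher (0.0843%) and 7 lower (0.197%) in the KO-labelled libraries. At an unadjusted p under 0.05 there were 221 genes (6.21%), and 51.0% of all genes tested had a log2 difference above 0. The median log2 difference of all genes tested was 0.01. In simulated data of this depth the test recovered 73.9% of 4-fold and 94.1% of 8-fold changes, so smaller differences are often not detectable here. These shares cover the 88 and 85 changed genes that passed the count filter, drawn from genes above a minimum of UMIs. Every simulated gene had the same spread between libraries, so recovery for genes with fewer UMIs or a wider spread is not known. Leaving out a library raised the count to 29 without WT-labelled 1, to 18 without KO-labelled 1 and to 29 without KO-labelled 2, and left it at 12 without WT-labelled 2.

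**Figure D3:**
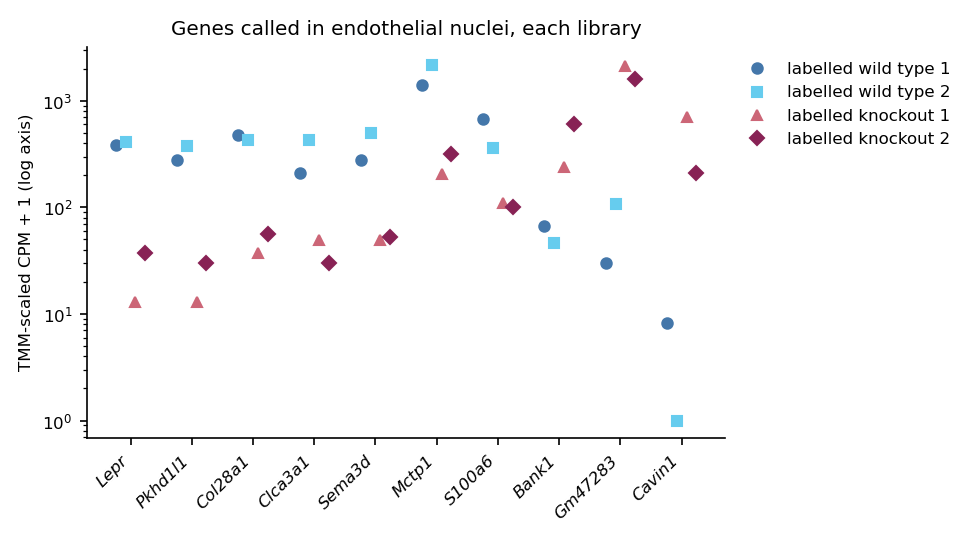
The x axis lists the 10 genes called in the label comparison and the y axis gives TMM-scaled CPM + 1 on a log scale, with 1 symbol per library. The symbols of the 2 groups do not overlap for any of the 10, and Cavin1 is at 7.28 and 0 CPM in the WT-labelled libraries.

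Cavin1 itself was higher in the KO-labelled libraries, by 6.22 on the log2 scale (SE 0.98, edgeR adjusted p = 0.0140). Over the summed nuclei this was 115 UMIs of 463845 against 1 UMI of 275364, a ratio of 68.3 with a counting interval of 12.0 to 2720. A UMI was seen in 29 of 116 and 34 of 180 endothelial KO-labelled nuclei and in 1 of 155 and 0 of 67 WT-labelled, where the count of 0 allows a share of up to 4.48%. Cavin1 lies on chromosome 11, bases 100956733 to 100970887 of GRCm38 on the minus strand.

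The 7 lower genes were Mctp1, Lepr, Col28a1, Pkhd1l1, Sema3d, S100a6 and Clca3a1. Mctp1, a calcium-binding protein of membranes with C2 domains, stood at 1411 and 2178 CPM in WT-labelled 1 and 2, and at 205 and 319 CPM in KO-labelled 1 and 2. It fell by 2.72 on the log2 scale (SE 0.41, edgeR adjusted p = 0.00361). A UMI of Mctp1 was seen in 40.0% and 52.2% of WT-labelled nuclei, and in 6.90% and 12.8% of the KO-labelled ones. Both KO-labelled libraries lay below both others, although KO-labelled 2 was the deepest.

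Lepr, the leptin receptor, stood at 386 and 408 CPM in the WT-labelled libraries and at 12.0 and 36.7 CPM in the KO-labelled ones. It fell by 3.71 on the log2 scale (SE 0.53, edgeR adjusted p = 0.00353). Col28a1, a collagen chain with von Willebrand factor A domains, stood at 480 and 423 CPM against 36.1 and 55.0 CPM, and fell by 3.19 on the log2 scale (SE 0.47, edgeR adjusted p = 0.00353). For these genes both WT-labelled libraries lay close together and well above both KO-labelled ones.

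Pkhd1l1, which encodes the large membrane protein fibrocystin-L, stood at 276 and 378 CPM against 12.0 and 29.4 CPM (log2 difference -3.68, SE 0.58, edgeR adjusted p = 0.00497). Sema3d, a secreted semaphorin, stood at 276 and 499 CPM against 48.2 and 51.4 CPM (log2 difference -2.88, SE 0.51, edgeR adjusted p = 0.0140). Clca3a1, of the calcium-activated chloride channel regulator family, stood at 211 and 423 CPM against 48.2 and 29.4 CPM (log2 difference -3.09, SE 0.58, edgeR adjusted p = 0.0215). Pkhd1l1 and Sema3d are also 2 of the 10 lymphatic markers. S100a6, a small calcium-binding protein, stood at 677 and 363 CPM against 108 and 99.1 CPM, and fell by 2.37 on the log2 scale (SE 0.43, edgeR adjusted p = 0.0172). Some of these calls rest on single libraries or gates. Without nuclei with 2 markers of another type, Lepr (log2 difference -3.05), Pkhd1l1 (-3.85), Sema3d (-2.28) and Clca3a1 (-2.74) were not called. Sema3d was also not called without nuclei with mural markers (-2.50). S100a6 was not called without WT-labelled 1 (log2 difference -1.78), at 5% mitochondrial UMIs (-1.80) or without nuclei with mural markers (-2.28). Sema3d was not called without WT-labelled 2 (-2.46), nor Clca3a1 without WT-labelled 2 (-2.57) or KO-labelled 2 (-2.66).

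The levels of these genes in other gates are given because Pkhd1l1 and Sema3d, 2 of the 7, are also lymphatic markers. In lymphatic nuclei, unscaled, Mctp1 stood at 1450 and 697 CPM in WT-labelled 1 and 2 and at 484 and 166 CPM in KO-labelled 1 and 2. Clca3a1 stood there at 688, 315, 69.1 and 221 CPM and Sema3d at 939, 664, 276 and 423 CPM. These 3 genes, together with Pkhd1l1 at 917, 540, 0 and 607 CPM, were thus abundant in lymphatic nuclei. Col28a1 was not: lymphatic nuclei held 0, 2, 3 and 0 of its UMIs. Lepr in lymphatic nuclei stood at 163, 22.5, 207 and 202 CPM, on 22, 2, 3 and 22 UMIs. S100a6 stood there at 118, 157, 69.1 and 138 CPM, on 16, 14, 1 and 15 UMIs. Neither had the order seen in endothelial nuclei, but some of these values rest on 1 to 3 UMIs. KO-labelled 1 held only 18 lymphatic nuclei. In mural nuclei Lepr stood at 535, 46.2, 0 and 162 CPM, and S100a6 at 64.2, 277, 1034 and 319 CPM.

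Without the nuclei that carried any of the 10 lymphatic markers, an alternative added after the data were seen, 5 genes were called among 2754 tested, which were Mctp1, Col28a1 and S100a6 among the lower and Gm47283 and Cavin1 among the higher genes. Lepr was tested there and not called (log2 difference -2.25), nor was Bank1 (3.16). Pkhd1l1, Sema3d and Clca3a1 had too few UMIs left to be tested, and the list holds Pkhd1l1 and Sema3d themselves, so their nuclei were removed by construction. Under a limit of fewer than 2 adipocyte markers, Mctp1 and Sema3d were not called (log2 differences -1.82 and -2.27), and Cavin1, Lepr and Clca3a1 had too few UMIs to be tested. The part of lymphatic nuclei in the remaining differences was not tested.

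**Figure D4:**
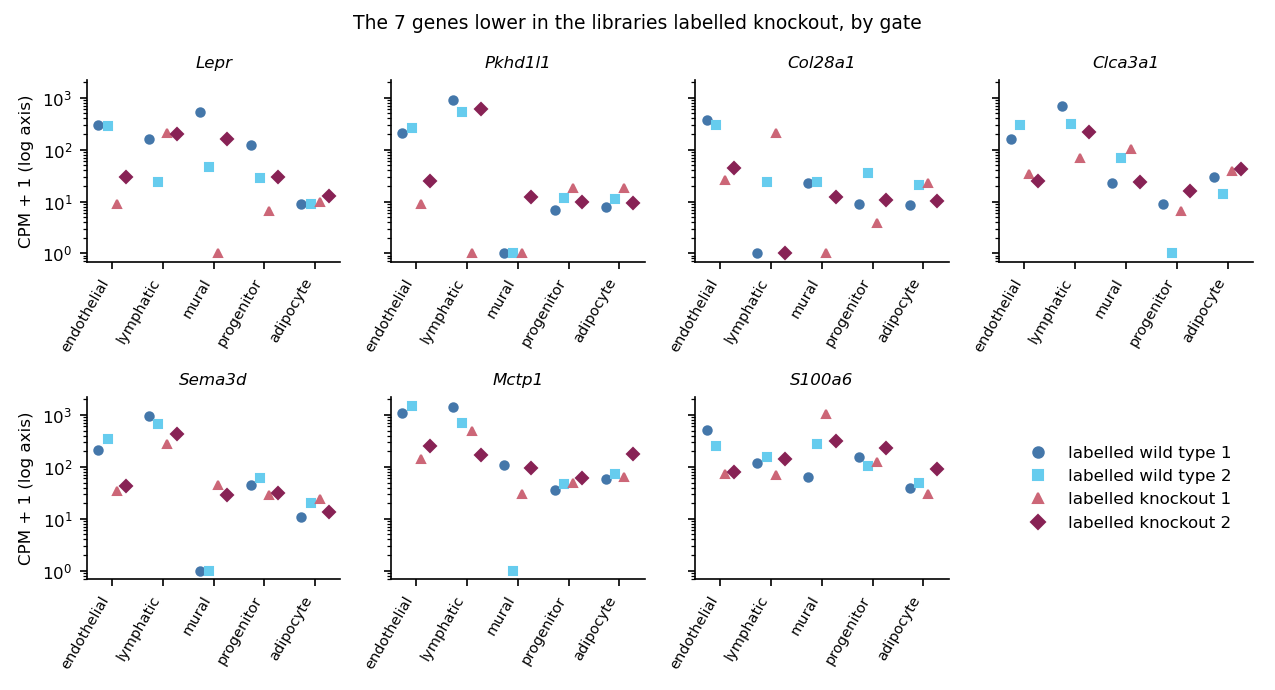
Each panel is 1 of the 7 lower genes, the x axis lists the 5 gates, the y axis is unscaled CPM + 1 on a log scale and each symbol is 1 library. In the endothelial gate both WT-labelled libraries lie above both KO-labelled ones for each of the 7, and in adipocyte nuclei Lepr stays between 7.79 and 12.0 CPM.

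Nuclei that carried more than 1 of the lower genes were counted. At least 2 of the 7 were seen in 54 of 155 and 31 of 67 endothelial WT-labelled nuclei (34.8% and 46.3%), and in 1 of 116 and 8 of 180 KO-labelled (0.862% and 4.44%). After thinning to 500 UMIs the shares were 19.4%, 20.9%, 0% and 1.11%, where the count of 0 among 116 nuclei allows up to 2.59%. Adipocyte nuclei, with median UMIs of 1376 to 2536.5, carried 2 of them in 0.114% to 0.744% after thinning, and lymphatic nuclei in 41.9%, 28.9%, 0% (of 18 nuclei, which allows up to 16.7%) and 11.1%. Within WT-labelled 1, 59.3% of the 54 nuclei also carried at least 2 venous markers, against 31.7% of its other 101. In WT-labelled 2 the shares were 74.2% of 31 and 50% of 36. Capillary marks stood at 72.2% against 73.3% in WT-labelled 1 and at 64.5% against 44.4% in WT-labelled 2. Arterial marks stood at 33.3% against 31.7% and at 19.4% against 27.8%. Lymphatic markers other than the called ones were more frequent in nuclei with at least 2 of the 7. They stood at 22.2% against 9.90% in WT-labelled 1 and 41.9% against 27.8% in WT-labelled 2. All these marks were read in unthinned nuclei, where deeper nuclei can carry more of any marker. Since the genes were picked for their difference, these shares are a description with no test. The share with at least 2 genes rises with how often each gene is seen alone. Whether the genes shared nuclei beyond that was not tested.

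Bank1, an adaptor protein of B cell receptor signalling, was higher, at 65.5 and 45.4 CPM in the WT-labelled libraries and 241 and 609 CPM in the KO-labelled ones (log2 difference 2.92, SE 0.55, edgeR adjusted p = 0.0215). It was seen in 10 of 116 and 35 of 180 KO-labelled nuclei. Without KO-labelled 2 the log2 difference was 2.00 and was not called. In adipocyte nuclei, Bank1 stood at 45.2, 51.2, 55.2 and 275 CPM, so KO-labelled 2 was high in both classes. B cell markers summed highest in that library, and their part in Bank1 was not tested.

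Gm47283, a predicted gene on chromosome Y at bases 90784738 to 90816464 of GRCm38, was the most strongly called, at 29.1 and 106 CPM against 2143 and 1596 CPM (log2 difference 4.99, SE 0.54, edgeR adjusted p = 1.58e-04). It was as uneven elsewhere: adipocyte nuclei held 31.9, 20.6, 1756 and 1158 CPM, and progenitor nuclei 32.4, 32.4, 2747 and 1337 CPM. The gene may share reads with near-identical copies, and how the authors' counting split them was not stated. Its difference was not among those that differed between endothelial and adipocyte or progenitor nuclei below. Xist, a non-coding RNA of chromosome X, was present in every library, at 520, 285, 278 and 554 unscaled CPM in endothelial nuclei. In adipocyte nuclei Xist stood at 1371, 1100, 1304 and 1376 CPM. The part of the sex of the mice in the difference of Gm47283 was not tested.

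Of the 14 caveola genes, 8 were tested, with Cavin1 called higher, 0 called lower and a median log2 difference of -0.41 beside 0.01 over all genes. That median was -0.16 without nuclei with 2 markers of another type, -0.20 without lymphatic-marked nuclei and 0.14 with nuclei thinned to 500 UMIs. Cav1, the caveolin of endothelium, stood at 1317 and 968 CPM in the WT-labelled libraries and 602 and 943 CPM in the KO-labelled ones (log2 difference -0.55, SE 0.37, edgeR adjusted p = 0.933). Cavin2, a cavin that is abundant in endothelium, stood at 742, 454, 674 and 679 CPM and overlapped between groups. Ehd4, an ATPase that shapes membranes, stood at 306 and 529 CPM against 60.2 and 220 CPM (log2 difference -1.36, SE 0.50, edgeR adjusted p = 0.637), and Ehd2, its relative at the caveolar neck, at 204 and 242 CPM against 157 and 125 CPM. Without KO-labelled 2 the fall of Ehd4 was called, at -2.76. Of the 8, 4 lay lower in both KO-labelled libraries than in both others and 1 higher, where 35.7% of all genes tested had groups that did not overlap, 18.1% higher and 17.6% lower.

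VEGF signalling, the main growth pathway of endothelium, had 10 of 20 listed genes tested and 0 called, with 5 above 0, 5 below 0 and a median of -0.07. Groups did not overlap for 3 higher and 2 lower members, beside 18.1% and 17.6% of all genes tested. Kdr, the main signalling receptor, stood at 255 and 151 CPM in the WT-labelled libraries and 494 and 356 CPM in the KO-labelled ones (log2 difference 0.98, SE 0.40, edgeR adjusted p = 0.660). Its co-receptor Nrp1 stood at 487 and 333 CPM against 686 and 903 CPM (0.94, SE 0.36, adjusted p = 0.637 in edgeR), and the decoy receptor Flt1 at 1048 and 802 CPM against 1228 and 1905 CPM (0.76, SE 0.38, adjusted p = 0.876 in edgeR). These were the 3 higher members. Nrp2, another neuropilin, lay the other way, at 342 and 439 CPM against 253 and 334 CPM, and Tek, the angiopoietin receptor, overlapped at 466, 484, 349 and 466 CPM. Ramp2, the co-receptor of adrenomedullin and a neighbour of Cavin1 on chromosome 11, stood at 189 and 106 CPM against 36.1 and 62.4 CPM without passing.

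Of 20 fatty acid handling genes, 13 were tested and 0 called, with a median log2 difference of 0.28. Cd36 stood at 4664, 2752, 3215 and 3604 TMM-scaled CPM in libraries WT-labelled 1 and 2 and KO-labelled 1 and 2. Fabp4, a fatty acid carrier, stood at 8192, 3251, 8815 and 2624 CPM. For both genes the spread within each group exceeded the difference between groups. Mgll, the monoglyceride lipase, stood at 771 and 484 CPM against 1517 and 1042 CPM (log2 difference 0.995, SE 0.38, edgeR adjusted p = 0.637).

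Genes of vascular tone, such as endothelin and nitric oxide pathway members, had 8 of 22 tested, 0 called and all 8 log2 differences below 0, with a median of -0.63. Edn1, which encodes endothelin-1, stood at 109 and 227 CPM against 60.2 and 25.7 CPM (-2.08, SE 0.75, edgeR adjusted p = 0.613). Ace, the angiotensin-converting enzyme, had 14 and 10 UMIs against 0 and 11. Outside this list, Klf2, a transcription factor induced by shear stress, stood at 728 and 469 CPM against 313 and 319 CPM (-0.94, SE 0.36, edgeR adjusted p = 0.637). It is a member of the endothelial transcription factor list, which had 7 tested members above 0 and 7 below. Counts behind Edn1 and Ace were under 20 UMIs in each library, so these differences rest on few molecules.

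Glucocorticoid target genes had 12 of 18 tested and 0 called, with 8 below 0 and a median of -0.72. Groups did not overlap for 7 of the 12, all 7 lower in the KO-labelled libraries, beside 17.6% of all genes tested. Fkbp5, a co-chaperone of the glucocorticoid receptor, stood at 1251 and 968 CPM against 409 and 653 CPM (-1.04, SE 0.37, edgeR adjusted p = 0.578). Tsc22d3, which encodes the leucine zipper protein GILZ, stood at 284 and 242 CPM against 84.3 and 110 CPM (-1.39, SE 0.46, edgeR adjusted p = 0.458). Zbtb16, a zinc finger transcription factor, stood at 1150 and 1497 CPM against 373 and 888 CPM, and Ddit4, an inhibitor of mTOR signalling, at 160 and 318 CPM against 96.3 and 58.7 CPM. Mitochondrially encoded genes lay the same way without passing, with 7 of 7 tested below 0 and 0 called and a median of -0.73. Of these, mt-Co1 stood at 1913, 2057, 1325 and 591 CPM and mt-Nd5 at 1382, 1180, 795 and 550 CPM. The median mitochondrial share of endothelial nuclei had another order, at 3.16% and 3.14% against 4.42% and 1.60%, and was highest in KO-labelled 1. The part of the mitochondrial share in the glucocorticoid values was not tested.

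The immediate early and heat shock list had 3 of 18 tested (median -0.66), the YAP list 8 of 16 (-0.19) and the leukocyte adhesion list 8 of 24 (-0.23), with 0 called. Jun, an immediate early transcription factor, stood at 378 and 166 CPM against 120 and 66.1 CPM (-1.72, SE 0.52, edgeR adjusted p = 0.370). Cyr61, a matrix protein induced by YAP, stood at 291 and 151 CPM against 132 and 40.4 CPM, and Ptpn14, a phosphatase that restrains YAP, at 568 and 711 CPM against 145 and 341 CPM. Nfkbia, the inhibitor of NF-kappa B, stood at 1004 and 847 CPM against 506 and 279 CPM (-1.30, SE 0.38, edgeR adjusted p = 0.309). Vcam1, a leukocyte adhesion molecule, had 14 and 7 UMIs against 1 and 8. These 5 genes were lower without overlap. Each list also held a member that was higher without overlap, namely Jund at 65.5 and 45.4 CPM against 108 and 84.4 CPM, Tead1 at 247 and 106 CPM against 277 and 275 CPM, and Ly6e at 124 and 60.5 CPM against 132 and 154 CPM. Over the 3 lists the non-overlapping members numbered 3 higher and 7 lower of 19 tested, beside 35.7% of all genes in either direction.

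Guidance and angiocrine genes included some that were higher without passing. Cxcl12, a chemokine of arterial and capillary endothelium, stood at 189 and 45.4 CPM in the WT-labelled libraries and at 614 and 532 CPM in the KO-labelled ones (log2 difference 2.10, SE 0.46, edgeR adjusted p = 0.0815). Slit3, a secreted guidance ligand, stood at 429 and 227 CPM against 1024 and 965 CPM (1.55, SE 0.38, edgeR adjusted p = 0.136). Slit2, another ligand of the family, had 1 and 0 UMIs against 11 and 30, a ratio of 24.3 with a counting interval of 4.13 to 985, and was not called (edgeR adjusted p = 0.439). Sema3d was the only one of 17 tested guidance genes that was called, beside 0.281% of all genes tested, while 6 lay higher and 5 lower without overlap, beside 18.1% and 17.6%.

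The vessel type lists gave no called gene. The arterial list had 9 of 15 tested with a median of 0.59, and Sema3g, an arterial semaphorin, at 138 and 136 CPM against 181 and 242 CPM. That median was -0.094 without KO-labelled 2. The venous list had 10 of 15 tested with a median of -0.66. In it Tll1, a metalloprotease, stood at 233 and 408 CPM against 84.3 and 213 CPM, Tshz2, a transcription factor, at 2241 and 2873 CPM against 1891 and 1270 CPM, and Aff3, a nuclear factor, at 138 and 257 CPM against 301 and 543 CPM (1.21, SE 0.44, edgeR adjusted p = 0.613). The venous median was 0.0465 without nuclei that carried 2 markers of another type, so its direction rests on which nuclei are admitted.

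**Figure D5:**
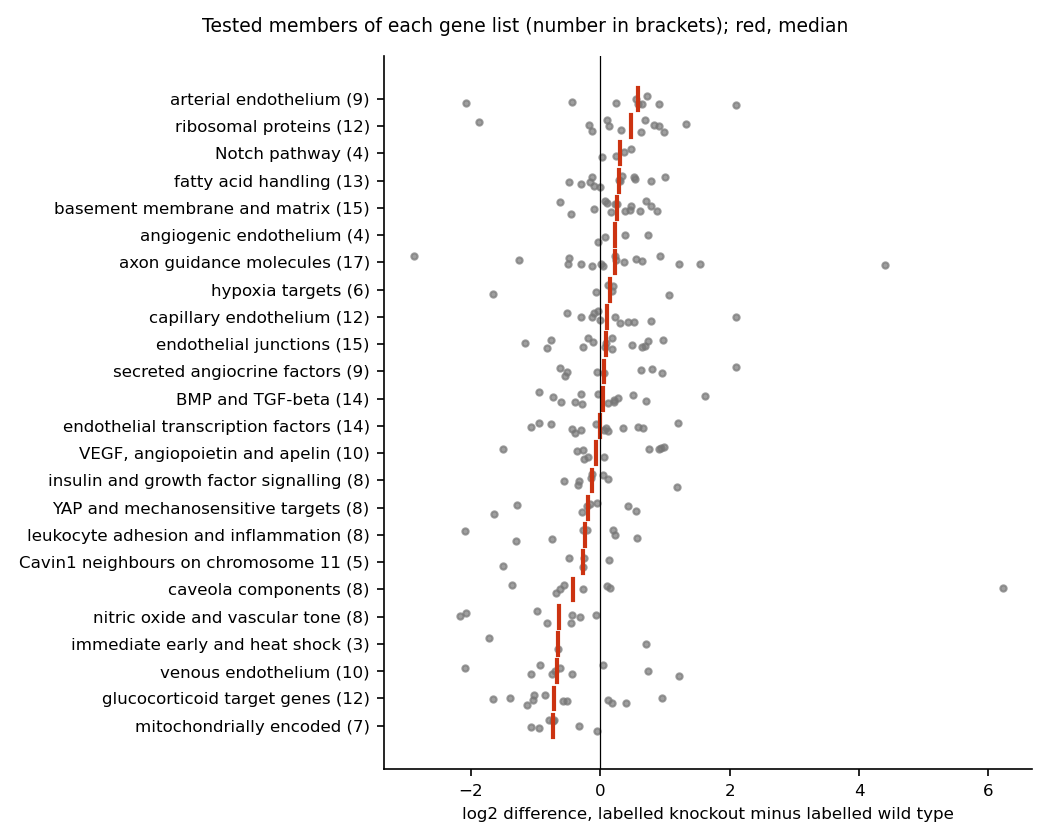
Each row is 1 gene list with the number of tested members in brackets, each grey point is the log2 difference of 1 gene and the red bar is the median. Medians run from -0.73 for mitochondrially encoded genes to 0.59 for the arterial list, against 0.01 over all genes tested, and the point at 6.22 is Cavin1.

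The ribosomal protein list had 12 of 21 tested, 0 called and a median of 0.48. Of the junction list, 15 of 21 were tested with a median of 0.09, and Cdh5, the endothelial cadherin, stood at 429 and 363 CPM against 650 and 484 CPM, while Cgnl1, a tight junction protein, stood at 211 and 302 CPM against 108 and 114 CPM. Of the transcription factor list, 14 of 24 were tested with a median of 0.00, and Ets1 stood at 415 and 439 CPM against 686 and 661 CPM (0.66, SE 0.34, edgeR adjusted p = 0.886). Itga1, a collagen-binding integrin, stood at 306 and 136 CPM against 458 and 407 CPM. Igfbp7, a secreted protein of vessels, stood at 429 and 454 CPM against 578 and 774 CPM, and Pfkfb3, a glycolytic regulator of sprouting, at 146 and 151 CPM against 446 and 206 CPM. None of these was called. No test here shows that a gene did not differ.

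To ask where endothelial nuclei differed from adipocytes in their response to the label, the interaction of class and label was tested with the library as a block. Of 14193 genes, 22 were called (0.155%), with 8 more positive (0.0564%) and 14 more negative (0.0986%) in endothelial nuclei. The gates held 11294 adipocyte nuclei. Mctp1 led, with a difference of log2 differences of -3.34 (SE 0.51, edgeR adjusted p = 1.05e-06): it fell by 2.72 in endothelial nuclei and stood at 0.78 in adipocytes. Slc8a1, a sodium and calcium exchanger, followed (-3.36, SE 0.54, edgeR adjusted p = 4.44e-06). Of the 22, 6 were among the 10 genes of the label comparison, namely Mctp1, Clca3a1, Lepr, Pkhd1l1, S100a6 and Col28a1. Genes such as Slc2a3, a glucose transporter, and Tead1, a partner of YAP, were more positive in endothelial nuclei, at log2 differences of 1.21 and 0.55 there and of -1.90 and -1.98 in adipocytes.

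Against 2070 progenitor nuclei, 15 of 8179 genes were called (0.183%), with 3 more positive (0.0367%) and 12 more negative (0.147%). Mctp1 led again (-3.10, SE 0.48, edgeR adjusted p = 1.15e-05), followed by S100a6 (-2.79, SE 0.52, edgeR adjusted p = 8.96e-04). Slit3 was more positive (2.13, SE 0.46, edgeR adjusted p = 0.00786), with 1.55 in endothelial nuclei and -0.55 in progenitors. Cd9, a tetraspanin, was more negative (-2.37, SE 0.51, edgeR adjusted p = 0.00786), with -1.81 and 0.48. Of the 15, 4 were in the label comparison, namely Mctp1, S100a6, Pkhd1l1 and Clca3a1. Both interactions use the same endothelial sums, so they are not independent of each other. Without 1 library the adipocyte interaction called 5, 9, 3 and 7 genes, leaving out WT-labelled 1 and 2 and KO-labelled 1 and 2 in turn, and the progenitor interaction called 6, 6, 4 and 15.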

How the data were processed

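The values are deposited raw counts of UMIs, 1 matrix for each of 4 libraries, per the file headers, and every barcode had at least 500 UMIs. Nuclei were captured with a Singleron GEXSCOPE kit, per the labels' protocols. Seurat 4.3.0 and the builds GRCm38 and mm10 are named in the submitters' processing notes, and no aligner was named there.

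Nuclei were gated by the rule in the report, and the counts of the endothelial, adipocyte and progenitor gates were summed per library, since nuclei are not replicates. The sums were filtered with filterByExpr, scaled with TMM (a trimmed-mean scaling of library size) and tested with edgeR 4.0.16 (glmQLFit, robust, two-sided) in R 4.3.3, with Benjamini-Hochberg adjustment and a threshold of 0.05. CPM values in comparisons are TMM-scaled, and those inside gates are unscaled. Shares were tested by exact permutation over libraries, after thinning each nucleus to 500 UMIs for vessel marks. No doublet caller was run. The test was checked on simulated counts. Alternatives were DESeq2 1.42.0, limma-voom 3.58.1, other scaling, filters, gates, depth and left-out libraries.

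The named genes are Cavin1, every called gene, the 25 leading genes, and, of each list, members among the 4 highest by mean CPM or the 3 with the lowest unadjusted p, of which some are printed. Xist was given beside Gm47283. A symbol with several identifiers was read as the one with most UMIs. The members and lists were chosen with earlier results of these data known. Library totals of endothelial UMIs ran from 94709 to 341372, which limits low genes. Separate mice are named in the titles, and their handling is not stated.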

Additional observations from a re-analysis of the deposited data

Results flagged for a closer look

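The results here are genes whose difference between the labels was not the same in endothelial nuclei as in another class, by edgeR's interaction test. Each value is the log2 difference in endothelial nuclei minus that in the other class. Against adipocytes, genes more negative in endothelial nuclei were Mctp1 (-3.34), Slc8a1 (-3.36), Clca3a1 (-3.76), Lepr (-4.00), Pkhd1l1 (-3.84), Ccdc3 (-2.64), Ncam2 (-2.81), S100a6 (-2.57), Col28a1 (-3.08), Col18a1 (-5.45), Pgm5 (-2.74), Emp1 (-3.33), Rhoj (-2.00) and Hoga1 (-4.55). Those more positive were Slc2a3 (3.09), Tead1 (2.63), Fam129b (2.93), Irf4 (4.62), Map4k5 (2.84), Enpp2 (2.53), Rgs7 (3.28) and Sema5a (2.48).

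Against progenitors, genes more negative in endothelial nuclei were Mctp1 (-3.10), S100a6 (-2.79), Col18a1 (-6.05), Ccdc3 (-3.48), Gpm6a (-5.39), Cd9 (-2.37), Foxp2 (-2.25), Emp1 (-2.98), Pkhd1l1 (-4.08), Eda (-1.86), Clca3a1 (-4.28) and Rhoj (-1.73). Those more positive were Slit3 (2.13), Greb1 (5.08) and AC140209.1 (2.12). The values for Col18a1, Irf4, Rgs7 and Greb1 rest on low endothelial counts, since these 4 genes did not pass the count filter of the endothelial comparison itself. Gpm6a, Pkhd1l1 and Clca3a1 likewise did not pass the count filter in progenitor nuclei. In WT-labelled 1 and 2 and KO-labelled 1 and 2, progenitor nuclei held 1, 2, 1 and 52 UMIs of Gpm6a. They held 6, 6, 6 and 22 of Pkhd1l1 and 8, 0, 2 and 37 of Clca3a1.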

How the results depend on the processing

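The 10 genes called by label became 16 with DESeq2, 1 with limma-voom, 21 under 2 adipocyte markers, 6 without nuclei holding 2 markers of another type, 1 with nuclei thinned to 500 UMIs, and 12 to 29 with 1 library left out. These counts come from unlike numbers of genes tested. There were 3560 in the main comparison, 23759 with DESeq2, 2224 under 2 adipocyte markers, 2750 without nuclei holding 2 markers of another type and 793 thinned. After thinning only 5 of the 10 genes could be tested, and the 21 under 2 adipocyte markers held 5 of the 10. Without nuclei with any lymphatic marker, chosen after seeing the data, 5 genes were called. A replicate block gave 29 calls and a crossed replicate block, added after seeing the data, 5. Deviations of same-numbered libraries correlated at -0.11. With 2 libraries per group this cannot show whether the numbers pair the samples. The adipocyte interaction, 22 genes, gave 8 at 4 endothelial markers, 5 at 1000 UMIs, and 3 to 9 with 1 library left out. The progenitor interaction, 15 genes, gave 8 without a count filter, 8 at 1000 UMIs, and 4 to 15 with 1 library left out. The difference in endothelial share, 0.0485 percentage points, was -0.0921 at 4 markers, 0.825 at 2 and 0.172 at 5% mitochondrial UMIs. That of the angiogenic mark, 1.38, was 7.71 unthinned and 2.76 for 1 marker. Log2 differences turned for Cavin2 (-0.16 to 0.61 with 1 library left out), Sema3g (-0.27 under 2 adipocyte markers) and Tll1 (0.025 without mixed nuclei). Cd36 ran from -0.48 to 0.34 with 1 library left out and turned to 0.12 under 2 adipocyte markers, 0.084 without mixed nuclei and 0.093 thinned. Fabp4 turned to 0.19 in limma-voom, 0.018 with a minimum of 10 UMIs, 0.22 under 2 adipocyte markers, 0.29 without mixed nuclei, 0.089 thinned and 0.33 without mural nuclei, and ran from -1.10 to 0.83 with 1 library left out. List medians turned for caveola genes (0.14 thinned), arterial genes (-0.094 to 1.18 with 1 library left out) and venous genes (0.0465 without mixed nuclei). The cause was not tested in any of these. Depth limits genes with few UMIs.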
